A study of Mus musculus with 14 samples.

Results

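The collagen genes were all genes of the array whose name consists of Col, a number, the letter a and a second number, the pattern mouse nomenclature gives to the chains of collagens. 41 of the 36161 gene names on the array met this rule, with 63 probes between them, and the probe with the highest mean signal stands for its gene. The RNA of whole tissue and of 1 cell line was hybridised to 14 one-color SurePrint G3 Mouse arrays of Agilent. Small intestine (3 arrays) and colon (3 arrays) came from C57BL/6J mice. Adenomas (3 arrays) and tissue adjacent to adenoma (2 arrays) came from APCmin/+ mice, which carry an inactivating mutation in 1 copy of Apc, a brake on Wnt signaling, and develop adenomas in the small intestine. CT26 (3 arrays) is a colon carcinoma cell line of BALB/c origin that grows in culture without any host tissue. The sample list of the study puts all adenoma and adjacent pieces under 1 mouse. What these groups add to the p-values is thus the spread between pieces, without the spread between APCmin/+ mice. The spread between arrays of the other group compared enters the p-values as well. The sample list also puts 1 of the colon samples under an APCmin/+ mouse, against the label. The adenomas were macroscopic lesions processed whole, with their own stroma. The wild type mice were adults.

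Collagens are the main proteins of the extracellular matrix. Each molecule is a triple helix of 3 chains, wound from a short repeated unit that always holds a glycine, and each chain is made by its own gene. Fibrillar collagens form the tensile fibers of connective tissue, fibril-associated collagens decorate these fibers, and network-forming collagens build the sheet of the basement membrane under epithelia and around vessels and muscle cells. In the gut wall they are made largely by fibroblasts, smooth muscle cells and endothelial cells, while epithelial cells contribute some basement membrane and anchoring chains.

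The repeat that defines the family can be read in the probes themselves. Of the 63 probes, 3 held at least 5 consecutive glycine codons (GGN) spaced by 9 bases. The probe used for Col15a1 and 1 of the 4 probes of Col16a1 are shown because both genes are described below, with glycine codons in capitals and positions in the build of the array files.
Col15a1 (mm9, chr4:47283786-47283845): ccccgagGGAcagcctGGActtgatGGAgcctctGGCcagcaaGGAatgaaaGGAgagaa
Col16a1 (mm9, chr4:129756457-129756516): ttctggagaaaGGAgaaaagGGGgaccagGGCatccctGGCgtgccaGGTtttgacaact

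RefSeq start sites were given for 33 of the 41 genes, in 36 windows of which the 250 bases before the start were read. Those of 5 genes are shown, for genes called higher in adenomas and in CT26 (Col1a2, Col5a1), for genes called higher in adenomas against both normal tissues of the small intestine (Col9a2, Col18a1), and for a fibrillar gene that was called in none of the comparisons (Col3a1). Capitals mark matches, on either strand, to the CCAAT box (CCAAT), the TATA box (TATAAA) or the GC box (GGGCGG), which do not overlap each other here. A second window of Col18a1 (GRCm38.p6, chr10:77113706-77113955, minus strand) held none of these matches and is not shown.
Col1a2 (GRCm38.p6, chr6:4505368-4505617, plus strand): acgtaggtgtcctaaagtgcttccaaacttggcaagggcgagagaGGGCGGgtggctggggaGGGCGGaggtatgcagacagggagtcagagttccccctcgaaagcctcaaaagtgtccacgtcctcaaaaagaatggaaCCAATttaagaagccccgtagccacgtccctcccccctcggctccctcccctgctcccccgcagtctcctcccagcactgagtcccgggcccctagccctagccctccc
Col5a1 (GRCm38.p6, chr2:27886175-27886424, plus strand): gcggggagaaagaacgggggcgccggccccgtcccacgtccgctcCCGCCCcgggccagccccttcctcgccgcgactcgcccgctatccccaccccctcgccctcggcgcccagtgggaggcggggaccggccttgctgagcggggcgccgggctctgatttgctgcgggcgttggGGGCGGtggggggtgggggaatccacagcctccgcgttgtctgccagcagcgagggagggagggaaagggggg
Col9a2 (GRCm38.p6, chr4:121039316-121039565, plus strand): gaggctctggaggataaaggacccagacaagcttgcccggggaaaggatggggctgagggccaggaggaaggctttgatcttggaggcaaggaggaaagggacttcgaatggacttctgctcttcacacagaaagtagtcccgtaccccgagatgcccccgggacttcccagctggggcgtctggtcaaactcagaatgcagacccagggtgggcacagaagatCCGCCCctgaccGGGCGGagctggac
Col18a1 (GRCm38.p6, chr10:77166531-77166780, minus strand): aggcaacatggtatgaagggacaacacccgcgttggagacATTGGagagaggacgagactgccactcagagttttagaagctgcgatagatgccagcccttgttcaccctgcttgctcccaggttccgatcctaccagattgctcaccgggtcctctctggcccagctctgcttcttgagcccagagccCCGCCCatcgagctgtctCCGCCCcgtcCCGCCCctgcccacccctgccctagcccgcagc
Col3a1 (GRCm38.p6, chr1:45311288-45311537, plus strand): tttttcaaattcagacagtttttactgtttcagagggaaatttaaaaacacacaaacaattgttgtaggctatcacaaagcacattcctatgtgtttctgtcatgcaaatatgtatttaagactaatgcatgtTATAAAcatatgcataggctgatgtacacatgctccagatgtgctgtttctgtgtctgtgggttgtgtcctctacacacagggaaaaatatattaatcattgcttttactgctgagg
CCAAT was found in 36.1% of the collagen windows and in 33.8% of all 32851 windows. TATAAA was found in 13.9% and 12.4%, and GGGCGG in 58.3% and 32.7%, respectively. Col1a2 held a CCAAT match 109 bases before its start, and Col3a1 a TATAAA match 117 bases before its start. These matches are a description of letters and were not tested.

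The 2 chains of the common basement membrane collagen, Col4a1 and Col4a2, are read from a shared stretch. Their RefSeq starts lie on opposite strands and overlap by 22 bases, shown with GGGCGG in capitals.
Col4a1 and Col4a2 (GRCm38.p6, chr8:11312805-11312826, plus strand): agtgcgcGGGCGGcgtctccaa
Col4a5 and Col4a6, another pair of basement membrane chains on chromosome X, are likewise read in opposite directions, from starts 1343 bases apart.

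Levels are given below as the log2 of the background-subtracted signal minus the 75th percentile of the array, so that 0 is the 75th percentile and a step of 1 is a doubling of signal. A level compares arrays for 1 probe and does not rank genes against each other. Errors of group means are SD, errors of differences are standard errors (SE) of the limma fit. A gene counts as detected on an array where the scanner software marked its probe as well above background. It was tested in a comparison when all arrays of 1 or more of the groups detected it, and was called in limma when the log2 difference reached 1.2 in size and the p, adjusted by the method of Benjamini and Hochberg, did not exceed 0.01, the thresholds of the study. In whole tissue, fewer cells of a type and less RNA per cell cannot be told apart.

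Labels were checked against marker genes. The library labelled colon replicate 3 stood apart from the other colon arrays. The median level of 10 enterocyte markers of the small intestine was 6.41 on it, against -2.66 and -1.57 on the other colon arrays and 6.59 to 9.20 in small intestine. The median of 10 colonocyte markers was -0.44 on it, against 5.50 and 5.30. It also had the lowest share of probes detected, 46.8%, where the other arrays had 49.2% to 58.2%. Counts of calls resting on colon are therefore given with and without it for the processing described above, as are the differences of the genes called between CT26 and colon. Counts under alternative processing include it. In CT26, 4 of 8 epithelial markers (Epcam, Cdh1, Krt19 and Vil1) were detected on no array and 3 (Krt18, Cldn7 and Krt20) on all. Vim, a mesenchymal filament, had a mean level of 7.41 there, against 2.73 in colon.

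Of the 41 collagen genes, 15 were detected on all 14 arrays, among them Col1a1, Col1a2, Col3a1, Col4a1, Col4a2, Col5a1, Col6a1, Col6a2, Col7a1, Col14a1, Col16a1 and Col18a1. There were 7 on no array, namely the cartilage chains Col2a1 and Col11a1, the hemidesmosomal chain Col17a1, and Col6a6, Col19a1, Col24a1 and Col28a1. The number detected on every array of a group was 20 of 41 in small intestine, 26 in adjacent tissue, 28 in adenomas, 24 in colon and 19 in CT26. In the same order, these were 48.8%, 63.4%, 68.3%, 58.5% and 46.3% of the collagen genes. The shares over all genes were 55.3%, 58.5%, 59.3%, 52.8% and 52.7%. Col9a3 and Col22a1 reached detection on every array in adenomas and in no other group. Col8a1 and the brighter probe of Col9a1 reached it in CT26 and in no other group, although both were detected on some arrays of other groups. Col5a3, Col6a4 and Col12a1 reached it in every group but CT26. No collagen probe was saturated. No probe was named Col6a3, the usual partner of Col6a1 and Col6a2, and it was not analysed here.

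**Figure D1:**
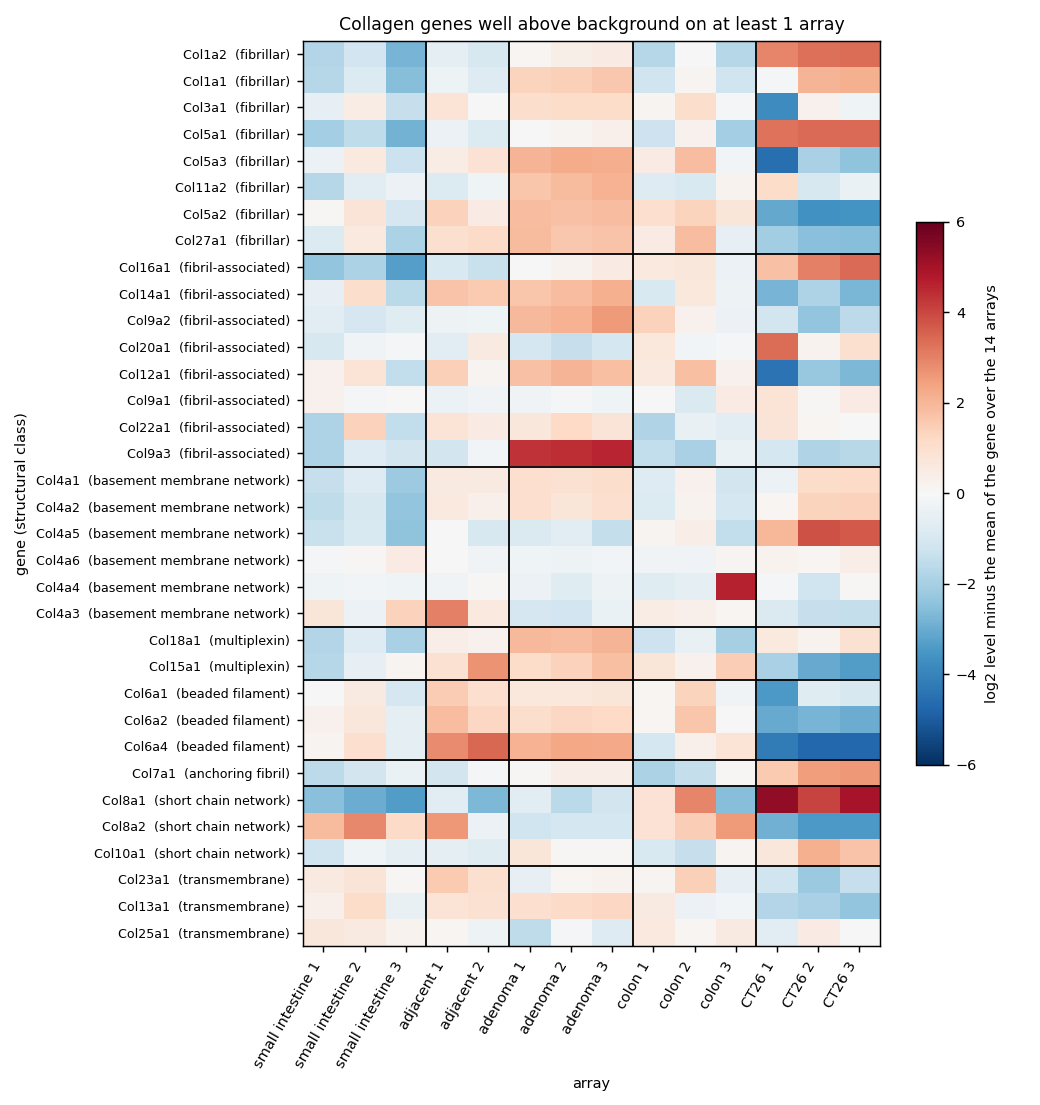
Level of each of the 34 collagen genes detected on at least 1 of the 14 arrays, as the log2 level minus the gene's own mean over the arrays (red higher, blue lower), with genes grouped by structural class and columns by sample group. Most fibrillar genes are evenly high over the 3 adenoma arrays, but Col1a2 and Col5a1 lie near their own mean there, as they are higher in CT26. Col9a3 stands out in adenomas, and CT26 splits the family into high (Col1a2, Col5a1, Col8a1) and low (Col5a2, Col6a4) genes.

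Between adenomas and small intestine, 14 of the 29 collagen genes tested (48.3%) were called higher and 1 (3.45%) lower in adenomas, where 11.3% of all genes tested were called higher and 11.1% lower. The remaining 12 of the 41 genes were not tested. The median log2 difference was 2.02 over the collagen genes tested and -0.15 over all genes tested, and 1.30 over all 41 collagen genes and -0.39 over all genes whether tested or not. Of the 15 called, 10 were detected on every array of both groups, all of them higher in adenomas. The groups of all 15 called genes did not overlap, which also sets their direction on each of the 2 slides taken alone. The genes were picked by the same arrays, and overlap was not counted over all genes, so this is a description only. By class, 6 of 8 fibrillar genes tested were higher, 3 of 7 fibril-associated genes, 2 of 5 basement membrane chains, both multiplexins and 1 of 3 beaded filament chains.

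Among the fibrillar genes, type I collagen is the major fiber of connective tissue and is built from the products of Col1a1 and Col1a2. Col1a1 read 0.91, 1.80 and 0.08 in small intestine, 2.31 and 1.84 in adjacent tissue and 3.94, 4.04 and 4.22 in adenomas. All adenoma arrays lay above all arrays of both other groups. The difference was 3.14 ± 0.41 (SE, limma adjusted p = 0.00108) against small intestine. Col1a2 read 2.99, 3.62 and 1.97 in small intestine, 4.21 and 3.79 in adjacent tissue and 4.89, 5.09 and 5.24 in adenomas, again with no overlap. Its difference from small intestine was 2.22 ± 0.40 (adjusted p = 0.00394), which did not pass when any adenoma array was left out (adjusted p of 0.0145 to 0.0188). Col3a1, the chain of the fibers that accompany type I collagen, read 1.94, 2.86 and 1.05 in small intestine and 3.47, 3.52 and 3.55 in adenomas. The groups did not overlap here either, but the difference of 1.57 ± 0.42 did not pass (adjusted p = 0.0186), except without small intestine replicate 2 (2.02, adjusted p = 0.0041).

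Type V collagen sits inside the type I fibers and sets their width. Col5a1 was 2.32 ± 0.33 higher in adenomas (adjusted p = 0.00161), with -2.03, -1.51 and -2.84 in small intestine against 0.05, 0.19 and 0.32. Col5a2 read -3.77, -3.04 and -4.85 against -1.97, -2.07 and -1.96, a difference of 1.88 ± 0.42 (adjusted p = 0.00949). Col5a3 read -2.59, -1.64 and -3.49 against -0.18, 0.01 and -0.04, a difference of 2.50 ± 0.43 (adjusted p = 0.00338). All 3 type V chains were thus called higher, although the calls of Col5a2 and Col5a3 were lost without any one of the adenoma arrays. That of Col5a2 was also lost without small intestine replicate 1, and its difference was 0.91 with normexp and 1.05 on the authors' table, both below the threshold of size. The call of Col5a2 was lost in 7 settings, both of these among them. Col11a2, a chain of the type XI collagen known mainly from cartilage, was detected on 1 of 3 small intestine arrays and on every adenoma array. It read -5.29, -4.25 and -3.89 in small intestine and -1.92, -1.67 and -1.49 in adenomas, a difference of 2.78 ± 0.36 (adjusted p = 0.00107). Col27a1 was detected on no small intestine array and on every adenoma array, at least 3.11-fold higher, and missed the threshold (adjusted p = 0.0103).

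The collagen with the greatest difference, Col9a3, encodes a chain of type IX collagen, which coats the fibers of cartilage. It was detected on no array of small intestine, adjacent tissue, colon or CT26, where its levels lay between -7.25 and -5.50. In adenomas it read -0.99, -0.90 and -0.75. Since the lower groups have only a bound, it was higher in adenomas by at least 12.6-fold against small intestine (adjusted p = 6.52e-05) and by at least 12.1-fold against adjacent tissue (adjusted p = 0.00181). Col9a2, a second chain of type IX collagen, read -2.38, -2.75 and -2.48 in small intestine, -2.04 and -2.02 in adjacent tissue and 0.19, 0.33 and 0.81 in adenomas. Here too every adenoma array exceeded every array of the normal tissues of the small intestine, with a difference of 2.98 ± 0.22 from small intestine (adjusted p = 0.000143). The probes of the remaining chain, Col9a1, disagreed. The brighter one lay between -4.70 and -4.06 in these groups and was detected on 1 of 3 small intestine arrays, on neither adjacent array and on 2 of 3 adenoma arrays. The second was detected on the 3 adenoma arrays (-4.14, -4.63 and -3.80) and on no other array, and was called higher in adenomas than in small intestine (adjusted p = 0.000927) and adjacent tissue (adjusted p = 0.00704). Of the other fibril-associated genes, Col16a1 read -0.17, 0.31 and -1.12 in small intestine and 2.19, 2.40 and 2.69 in adenomas, a difference of 2.76 ± 0.36 (adjusted p = 0.00117). Its probe shown above was detected on every adenoma array and on no small intestine array, and was called too (adjusted p = 0.0037). Col12a1 (1.98 ± 0.55, adjusted p = 0.0208) and Col14a1 (2.22 ± 0.60, adjusted p = 0.0197), which bind the surface of type I fibers, were not called.

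In the basement membrane, Col4a1 and Col4a2 moved alike. Col4a1 read 0.24, 0.88 and -0.56 in small intestine, 2.16 and 2.18 in adjacent tissue and 2.65, 2.54 and 2.71 in adenomas. Col4a2 read -0.03, 0.53 and -0.90, then 2.09 and 1.81, then 2.51, 2.21 and 2.49 in the same order. Both adjacent arrays lay above all small intestine arrays for both genes, and the differences between adenomas and small intestine were 2.44 ± 0.35 (adjusted p = 0.00156) and 2.54 ± 0.35 (adjusted p = 0.00144). The pair on chromosome X was not called, with 0.58 ± 0.41 for Col4a5 (adjusted p = 0.268) and -0.41 ± 0.20 for the brighter probe of Col4a6 (adjusted p = 0.119). The second probe of Col4a6 read -4.07, -3.47 and -6.53 in small intestine, -2.70 and -2.91 in adjacent tissue and -5.16, -5.07 and -4.56 in adenomas. Col18a1 encodes the multiplexin that carries endostatin at its end and lies in epithelial and vascular basement membranes. It read 0.13, 1.09 and -0.07 in small intestine, 2.26 and 2.15 in adjacent tissue and 3.81, 3.72 and 3.91 in adenomas. The 3 groups were fully separated, and adenomas were 3.43 ± 0.31 above small intestine (adjusted p = 0.000272), with 3.45 from a second probe. Col15a1, the other multiplexin, read -5.63, -4.44 and -3.75 in small intestine, -3.02 and -1.21 in adjacent tissue and -2.84, -2.56 and -2.11 in adenomas. It was detected on 1 of 3 small intestine arrays, and its difference of 2.10 ± 0.47 (adjusted p = 0.00908) rests on the setting. It was 0.69 with normexp background correction (adjusted p = 0.048) and 0.83 on the authors' table (adjusted p = 0.0126), and the call was lost in 7 settings, these among them, and without small intestine replicate 2 or any one of the adenoma arrays.

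Type VI collagen forms beaded filaments around cells. Col6a1 read 1.56, 2.11 and 0.56 in small intestine, 3.09 and 2.58 in adjacent tissue and 2.20, 2.21 and 2.32 in adenomas. Col6a2 followed with -0.86, -0.40 and -1.62, then 0.74 and 0.16, then -0.04, 0.16 and 0.10. Neither was called between adenomas and small intestine (0.83 ± 0.37, adjusted p = 0.0969, and 1.03 ± 0.31, adjusted p = 0.0264). Col6a4 read -2.43, -1.59 and -3.16 in small intestine, 0.23 and 0.83 in adjacent tissue and -0.53, -0.28 and -0.33 in adenomas. It was called between adenomas and small intestine (2.02 ± 0.38, adjusted p = 0.00463), and both adjacent arrays lay above the adenomas. The call was lost without any one of the adenoma arrays (adjusted p of 0.0167 to 0.0221), without small intestine replicate 1 (0.0104) and without a filter on dim probes (0.0117). Col7a1, the anchoring fibril under epithelia, read -1.75, -1.27 and -0.57 in small intestine and -0.13, 0.23 and 0.21 in adenomas (1.30 ± 0.31, adjusted p = 0.0117). Without small intestine replicate 3 it was called (1.61, adjusted p = 0.00294).

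One collagen gene was lower in adenomas. Col8a2, a short chain that forms hexagonal networks, read -2.13, -1.13 and -2.86 in small intestine, -1.41 and -4.36 in adjacent tissue and -5.19, -5.08 and -5.05 in adenomas. It was detected on 1 of 3 adenoma arrays, and the difference was -3.07 ± 0.41 (adjusted p = 0.00118). The adjacent arrays were far apart, and the difference from adenomas did not pass (-2.22 ± 0.80, adjusted p = 0.103).

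**Figure D2:**
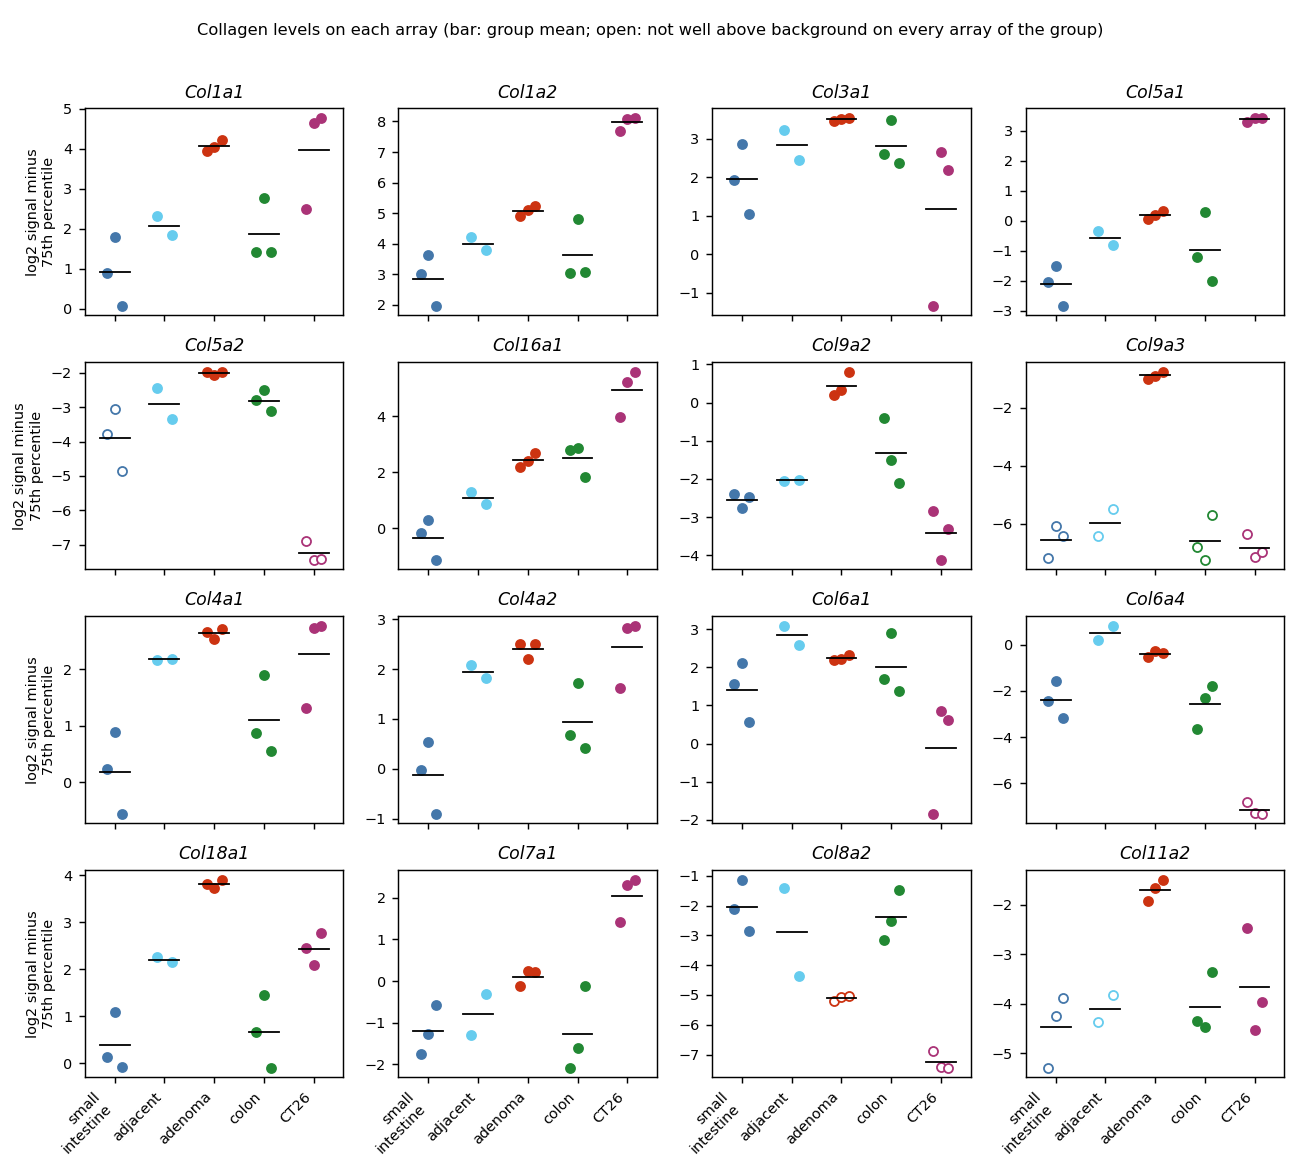
Level of 16 collagen genes on each array (log2 signal minus the 75th percentile of the array, own scale in each panel) by group, with a bar at the group mean and open points where the gene was not detected on every array of the group. The 3 adenoma arrays lie close together and above small intestine in most panels, Col9a3 is detected in adenomas alone, and Col5a2, Col6a4 and Col8a2 lie at background in CT26.

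Whether tissue next to an adenoma differed from healthy small intestine was asked with 2 adjacent arrays. No collagen gene of 26 tested was called, where 0.00924% of all genes tested were called higher and 0% lower. At an unadjusted limma p under 0.05, 12 collagen genes (of all genes 12.8%) were higher in adjacent tissue and 0 (of all genes 17.9%) lower. The median difference was 1.10 over the collagen genes tested and -0.10 over all genes tested. The greatest differences were 2.92 ± 0.49 for Col6a4 (adjusted p = 0.0513) and 2.49 ± 0.72 for Col15a1 (adjusted p = 0.0943). Basement membrane chains differed by 2.09 ± 0.43 for Col4a2 (adjusted p = 0.0616), 1.98 ± 0.43 for Col4a1 (adjusted p = 0.0634), 1.07 ± 0.52 for Col4a5 (adjusted p = 0.224), 0.13 ± 0.21 for Col4a4 (adjusted p = 0.677) and -0.30 for the brighter probe of Col4a6 (adjusted p = 0.444). Col18a1 differed by 1.82 ± 0.38 (adjusted p = 0.0617). None of these passed. The second probe of Col4a6, with levels given above, went the other way and lay higher on both adjacent arrays than on all small intestine arrays.

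Between adenomas and adjacent tissue, 6 of 29 collagen genes tested (20.7%) were called higher in adenomas and 0 lower, where 2.4% of all genes tested were called higher and 1.78% lower. These were Col9a3 (at least 12.1-fold, as above), Col9a2 (2.47 ± 0.22, adjusted p = 0.00443), Col11a2 (2.40 ± 0.23, adjusted p = 0.00515), Col1a1 (1.99 ± 0.20, adjusted p = 0.00553), Col18a1 (1.61 ± 0.15, adjusted p = 0.00463) and Col5a3 (1.49 ± 0.18, adjusted p = 0.00751). The groups of these genes did not overlap, which was not counted over all genes. They comprise 2 type IX chains and 3 fibrillar chains beside Col18a1. At an unadjusted p under 0.05, 15 collagen genes were higher and 5 lower, where 18.4% and 19.9% of all genes were. Col4a1 and Col4a2 differed by 0.46 ± 0.15 (adjusted p = 0.0777) and 0.45 ± 0.18 (adjusted p = 0.132). The count is fragile with 5 arrays, since it was 0 without any one of the adenoma arrays, 2 without adjacent replicate 1 (Col9a3 and Col1a1), and 1 (Col9a3) with the slide as a block. The direction of all 6 was the same on each slide alone, which follows from groups that do not overlap.

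The small intestine arrays themselves differed in a way most collagens shared. Of the 20 collagen genes detected on all 3, 16 were highest in replicate 2 and 16 lowest in replicate 3. This order was not counted over all genes. The median of 10 fibroblast markers other than collagens followed the same order (0.65, 1.36 and -0.17 in replicates 1, 2 and 3), as did that of 8 smooth muscle markers (4.55, 5.36 and 3.85). That of 6 endothelial markers was also highest in replicate 2 but lowest in replicate 1 (-2.86, -2.33 and -2.55). The median SD of the detected collagens was 0.72 in small intestine, 0.33 in adjacent tissue, 0.15 in adenomas, 0.80 in colon and 0.66 in CT26. Adenomas thus had the lowest median SD, each median being over the genes detected in that group, and the cause was not tested. The adenoma and adjacent pieces are listed under 1 mouse, as given above.

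Marker lists are given beside the collagens, and their part in the differences was not tested. Over all genes tested between adenomas and small intestine, 11.3% were called higher and 11.1% lower. Between adenomas and small intestine, 4 of 6 endothelial markers were called higher (Cdh5, Tek, Vwf and Emcn, median over the list 2.14) and 0 lower. Of 10 fibroblast markers, 1 was higher (Pdgfra, 2.62) and 1 lower (Fbln1, -1.99), with a median of 1.10. Of 8 smooth muscle markers, 0 were higher and 1 lower, with a median of -1.42. Of 8 epithelial markers, 1 was higher and 3 lower, and the median of their levels lay between 7.23 and 7.63 in adenomas and between 7.98 and 8.49 in small intestine. The summed level of the fibroblast list lay between 6.09 and 6.26 in adenomas and between 5.35 and 6.47 in small intestine, and all its genes were detected on every array of both groups.

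**Figure D3:**
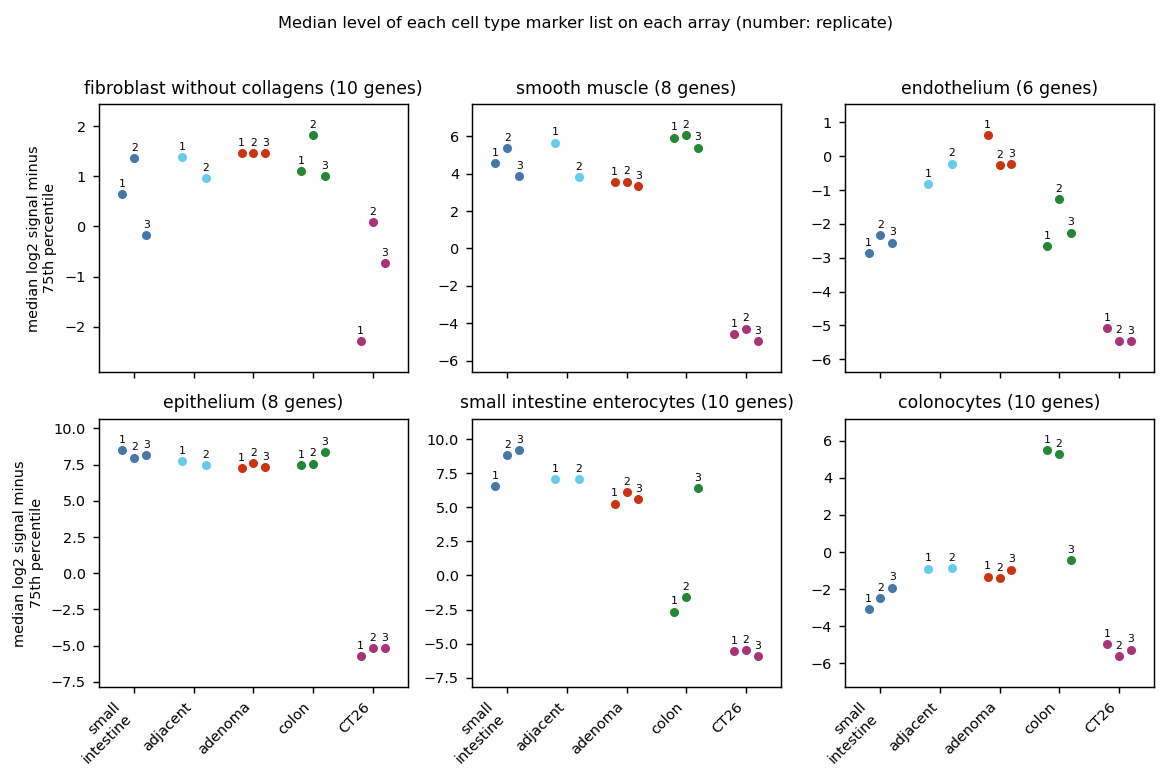
Median level of 6 cell type marker lists on each array (log2 signal minus the 75th percentile of the array, own scale in each panel), with the replicate number at each point. Small intestine replicate 3 has the lowest fibroblast median of its group, colon replicate 3 carries enterocyte markers at 6.41, and CT26 lies low for epithelial, smooth muscle and endothelial markers.

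Colon and small intestine of the same strain were compared to see whether the normal tissues differ. No collagen gene of 25 tested was called, where 0.00484% of all genes tested were called higher and 0.00484% lower, and 3 were higher and 0 lower at an unadjusted limma p under 0.05, where 10.4% and 13.5% of all genes were. Without colon replicate 3, which carries small intestine markers, 2 collagen genes were called higher in colon and 0 lower, against 3.34% and 3.9% of all genes. One was Col16a1, with 2.80, 2.88 and 1.85 in colon and -0.17, 0.31 and -1.12 in small intestine. Its difference was 2.84 ± 0.46 with the array (adjusted p = 0.0563) and 3.17 without it (adjusted p = 0.00618). The second was Col8a1, a partner of Col8a2 in vessel walls, with -2.39 and -0.37 on the first 2 colon arrays and -5.85 on colon replicate 3. In small intestine it read -5.80, -6.26 and -6.61 and was detected on no array, and it was at least 8.95-fold higher in colon without the array (adjusted p = 0.00469). Col4a4 stood out on colon replicate 3 alone, at 0.64, where the other 13 arrays read -5.14 to -3.87. Type I, III and IV chains were 0.78 to 1.07 higher in colon with all arrays (Col1a1 0.94, Col1a2 0.78, Col3a1 0.87, Col4a1 0.91, Col4a2 1.07) and 1.07 to 1.33 higher without colon replicate 3, none of them called. Col18a1 differed by 0.29 ± 0.49 (adjusted p = 0.743) and by 0.67 without colon replicate 3 (adjusted p = 0.287).

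CT26 cells were compared with colon as the tissue of their origin. Of 26 collagen genes tested, 5 (19.2%) were called higher in CT26 and 8 (30.8%) lower, where 21% of all genes tested were called higher and 16.2% lower. The remaining 15 of the 41 genes were not tested. The median difference was 0.37 over the collagen genes tested and 0.32 over all genes tested, and -0.31 over all 41 collagen genes and -0.21 over all genes whether tested or not. Of the 13 called, all 5 higher and 2 of the 8 lower (Col6a2 and Col14a1) were detected on every array of both groups. None of the 13 called genes overlapped between groups, which also sets their direction on each slide alone and was not counted over all genes. Without colon replicate 3 the calls were 6 higher and 11 lower and included all 13, while 20.1% of all genes were then called higher and 19.4% lower. On the authors' own normalized table the split was 5 higher and 4 lower.

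The genes higher in CT26 were headed by the fiber chains Col5a1 and Col1a2. Col5a1 read -1.23, 0.29 and -2.02 in colon and 3.28, 3.40 and 3.43 in CT26, a difference of 4.36 ± 0.56 (adjusted p = 0.000497) and of 3.84 without colon replicate 3. Col1a2 read 3.06, 4.79 and 3.06 in colon and 7.70, 8.08 and 8.12 in CT26, a difference of 4.33 ± 0.50 (adjusted p = 0.000309) and of 4.05 without that array. The CT26 arrays were nearly level for both genes. Col1a1, the partner of Col1a2, read 1.43, 2.76 and 1.41 in colon and 2.50, 4.64 and 4.77 in CT26, so that CT26 replicate 1 lay within the colon range. Its difference of 2.10 ± 0.68 did not pass (adjusted p = 0.0323), but did without CT26 replicate 1 (2.84, adjusted p = 0.0061). Col4a5 read -1.79, -1.54 and -3.42 in colon and 0.04, 1.88 and 1.73 in CT26 (3.47 ± 0.66, adjusted p = 0.00341, and 2.88 without colon replicate 3, but not called without CT26 replicate 2 or 3), whereas the brighter probe of Col4a6, read from the neighboring start, differed by 0.35 ± 0.28 (adjusted p = 0.329). The second probe of Col4a6 went another way, with -1.64, -1.35 and -4.70 in colon and -6.74, -6.99 and -7.22 in CT26, where no array detected it. It was not tested, and the mean of both probes was called lower in CT26 (-2.04, adjusted p = 0.00522). Col7a1 read -2.08, -1.60 and -0.13 in colon and 1.41, 2.31 and 2.44 in CT26 (3.32 ± 0.55, adjusted p = 0.00178, and 3.89 without colon replicate 3). Col16a1, with 3.98, 5.24 and 5.59 in CT26, was 2.43 ± 0.50 above colon (adjusted p = 0.00495) and 2.10 without colon replicate 3 (adjusted p = 0.00934), and its 3 other probes gave differences of the same sign. This call was lost with quantile normalization (adjusted p = 0.0259), on the authors' table (0.0188), with the slide (0.0143) or the replicate number (0.0121) as a block, and without colon replicate 1 or 2 or CT26 replicate 2 or 3. Col4a1 (1.16 ± 0.52, adjusted p = 0.0982), Col4a2 (1.50 ± 0.49, adjusted p = 0.034) and Col18a1 (1.77 ± 0.44, adjusted p = 0.0111) were not called, although a second probe of Col18a1 was (2.20, adjusted p = 0.00362). Col8a1, at 2.04, 0.77 and 1.69 in CT26, was 4.37 above colon with all arrays (adjusted p = 0.0188), was called without colon replicate 3 (2.88, adjusted p = 0.00761) and without colon replicate 2 (5.62, adjusted p = 0.00359), and was called with normexp, on the authors' table and with all 5 groups in one fit.

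The genes lower in CT26 included both other type V chains. Col5a2 read -2.80, -2.50 and -3.12 in colon and -6.88, -7.44 and -7.41 in CT26, where it was detected on no array, and was at least 5.55-fold lower (adjusted p = 2.66e-05) and at least 6.19-fold without colon replicate 3. Col5a3 read -1.71, -0.38 and -2.38 in colon and -6.74, -4.14 and -4.65 in CT26 (-3.69 ± 0.76, adjusted p = 0.00506, and -4.13 without colon replicate 3). Within type V collagen, Col5a1 was thus called higher and Col5a2 and Col5a3 lower in the same cells. On the authors' table neither lower call was made, with -1.05 for Col5a2 (adjusted p = 0.00317) and -1.51 for Col5a3 (adjusted p = 0.0239). That of Col5a3 was also lost with quantile normalization (adjusted p = 0.0197), with the slide as a block (adjusted p = 0.0134) and without colon replicate 1 or 2 or CT26 replicate 1 or 3. Type VI chains were low, with Col6a4 at least 6.50-fold lower (adjusted p = 0.00023, and at least 4.91-fold without colon replicate 3) and Col6a2 at -0.51 ± 0.93 (SD, n = 3) in colon against -4.03 ± 0.12 in CT26 (-3.53 ± 0.47, adjusted p = 0.000608, and -3.81 without colon replicate 3). Col6a1 read 1.70, 2.91 and 1.38 against -1.84, 0.86 and 0.61, a difference of -2.12 ± 0.76 that did not pass (adjusted p = 0.0474). Col8a2 was at least 7.45-fold lower (adjusted p = 0.000112) and Col15a1 at least 4.49-fold lower (adjusted p = 0.000635), both detected on no CT26 array. Without colon replicate 3 the bounds were 5.41-fold and 3.56-fold, and on the authors' table Col15a1 differed by -0.89 (adjusted p = 0.00815) and was not called. Col12a1 read -1.54, -0.30 and -1.85 in colon and -6.55, -4.38 and -4.79 in CT26 (-4.01 ± 0.65, adjusted p = 0.00157, and -4.32 without colon replicate 3). Col14a1 was 2.25 lower by its brighter probe (SE 0.47, adjusted p = 0.00543, and -2.30 without colon replicate 3), but its second, dimmer probe gave 0.19 (adjusted p = 0.646), so that the call rests on 1 probe. It was lost without colon replicate 2 and without CT26 replicate 1 or 3 (adjusted p of 0.0145 to 0.0257). Col3a1 read 2.62, 3.48 and 2.37 in colon and -1.34, 2.67 and 2.20 in CT26, with replicate 1 far below the others (-1.65 ± 0.99, adjusted p = 0.2). CT26 replicate 1 was the lowest of its group for 12 of the 19 collagen genes detected on every CT26 array.

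Markers of cell types in whole colon are given beside these genes, and their part was not tested. Over all genes tested, 21% were called higher and 16.2% lower in CT26. In CT26, 7 of 8 smooth muscle markers, 8 of 8 epithelial markers and 2 of 4 endothelial markers tested were called lower. Myh11, Cnn1 and Des of smooth muscle and Cdh5, Tek and Emcn of endothelium were detected on no CT26 array. Detected on every CT26 array were 4 of 8 smooth muscle markers and 3 of 6 endothelial markers. Of 10 fibroblast markers, 5 were lower (Thy1, Postn, Lum, Fbln1 and Dcn) and 4 higher (Vim, Fbln2, Fn1 and Pdgfrb), and 4 were detected on no CT26 array. Without colon replicate 3, 7 of 8 smooth muscle, 8 of 8 epithelial and 3 of 5 endothelial markers tested were called lower. Of the fibroblast markers, 5 were then lower and 4 higher. The shares over all genes tested were 20.1% higher and 19.4% lower.

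**Figure D4:**
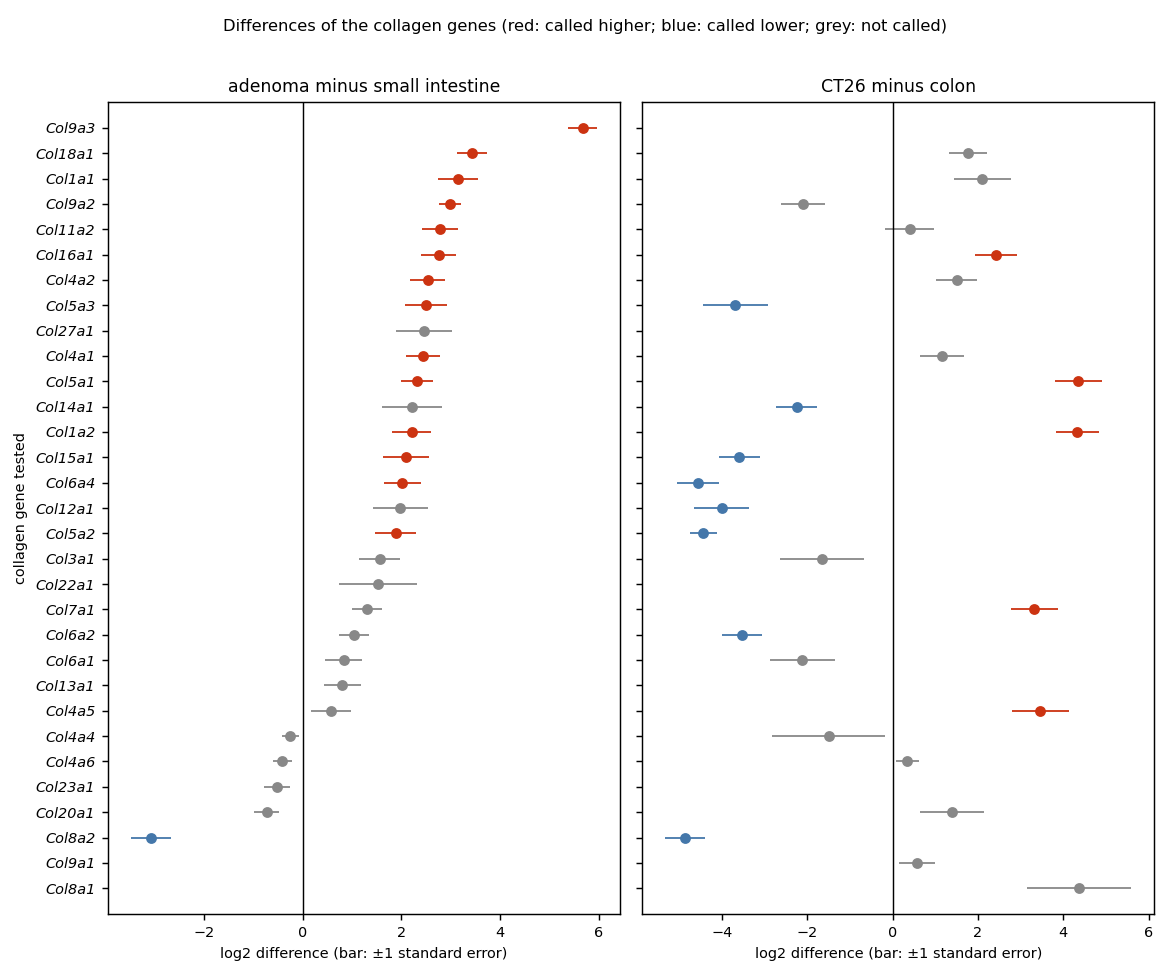
Log2 differences with ±1 SE of the collagen genes tested, for adenomas minus small intestine (left) and CT26 minus colon (right), in the same gene order (red called higher, blue called lower, grey not called). The left panel holds 14 genes called higher and 1 called lower, while the right panel holds 5 and 8.

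Several genes were detected in some groups or on single arrays. Of the membrane-spanning collagens, Col23a1 read -2.90, -2.63 and -3.32 in small intestine, -1.85 and -2.47 in adjacent tissue, -3.92, -3.31 and -3.18 in adenomas and -4.61, -5.65 and -4.79 in CT26. Its difference between adenomas and adjacent tissue was -1.31 ± 0.30 (adjusted p = 0.0359), and it was detected on no CT26 array. With all arrays this probe was not tested between CT26 and colon, without colon replicate 3 it was called at least 4.70-fold lower in CT26 (adjusted p = 0.00517), and a second probe was called lower with all arrays (adjusted p = 0.000596). Col13a1 was detected on every adjacent and adenoma array and on no CT26 array, and Col25a1 on 1 array each of small intestine, colon and CT26. Col20a1, a fibril-associated chain, was detected on all arrays and varied most in CT26 (1.46, -1.68 and -0.92). Col22a1 read -4.47, -3.97 and -4.39 in adenomas and -7.00, -3.78 and -6.62 in small intestine, where it was detected on replicate 2 alone. Col10a1, the chain of hypertrophic cartilage, was detected on 2 of 3 CT26 arrays and on none of the other 11 arrays, and Col4a3 on adjacent replicate 1 alone.

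Since adenomas were set against small intestine and CT26 against colon on separate arrays, the difference between these differences was tested directly. Of 31 collagen genes tested, 11 (35.5%) had a lower difference in CT26 and 0 a higher one, where 15.3% of all genes tested were lower and 15.5% higher. Of the 11, 3 (Col6a2, Col9a2 and Col14a1) were detected on every array of each of the 4 groups, and 8 entered the test through the groups where they were high. With detection on every array of each group as the condition, these 3 were called lower and 0 higher, where 6.14% of all genes then tested were called lower and 18.9% higher. The median was -1.66 over the collagen genes tested and 0.43 over all genes tested, and -1.04 over all 41 collagen genes and 0.20 over all genes. For Col5a2 the change was 1.88 in adenomas and -4.44 in CT26 (difference of -6.33 ± 0.55, adjusted p = 4.82e-06), and for Col6a4 2.02 and -4.57 (-6.59 ± 0.68, adjusted p = 1.81e-05). With Col5a3 and Col15a1, these genes were called higher in 1 comparison and lower in the other. Each of their calls in adenomas was lost without any one of the adenoma arrays, as given above. Col5a2, Col6a4, Col15a1, Col27a1 and Col13a1 were detected on no CT26 array, and Col9a3 on no array outside the adenomas, so that these differences have no exact size. For the genes called higher in both comparisons the test did not pass, with 2.12 ± 0.70 for Col1a2 (adjusted p = 0.028), 2.04 ± 0.71 for Col5a1 (adjusted p = 0.0354) and -0.33 ± 0.67 for Col16a1 (adjusted p = 0.718). Without colon replicate 2 it passed for Col1a2 (2.70, adjusted p = 0.00287) and Col5a1 (2.68, adjusted p = 0.00191). Col1a1, called in adenomas but not in CT26, gave -1.04 ± 0.88 (adjusted p = 0.362). Without colon replicate 3 the counts were 12 lower and 1 higher (Col7a1, 2.60, adjusted p = 0.00214), where 17.3% of all genes were lower and 18.5% higher, and with normexp background correction 10 lower and 3 higher.

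Genes that modify, process and crosslink collagens were taken from a list of 29, all on the array. The enzymes hydroxylate prolines and lysines of the new chains, chaperones hold the triple helix, proteinases trim its ends and lysyl oxidases crosslink the fibers. Between adenomas and small intestine, 9 of 25 tested were called higher and 1 lower, with a median of 1.04. Over all genes tested, 11.3% were higher and 11.1% lower, with a median of -0.15. Higher were Pcolce2, an enhancer of the procollagen C-proteinase (4.74 ± 0.48, adjusted p = 0.000442), the prolyl hydroxylase subunit P4ha2 (3.40 ± 0.22, adjusted p = 0.000105), the crosslinking enzymes Lox (at least 1.64-fold), Loxl4 (at least 2.17-fold) and Loxl2 (2.10 ± 0.40), the lysyl hydroxylases Plod2 (1.99 ± 0.39) and Plod3 (1.26 ± 0.16), the prolyl 3-hydroxylation partner Crtap and the N-proteinase Adamts14. Lepre1, a prolyl 3-hydroxylase, was lower (-1.48 ± 0.19, adjusted p = 0.00113). Against adjacent tissue 4 of 26 were higher, namely Pcolce2 (at least 24.2-fold), Lox (at least 1.58-fold), Adamts2 (1.49) and Plod3 (1.35), and 0 lower. The shares over all genes tested were 2.4% higher and 1.78% lower. Lox was detected on no array of small intestine or adjacent tissue, Loxl4 on none of small intestine and Pcolce2 on none of adjacent tissue, which leaves these values as bounds. Of the 23 tested between adjacent tissue and small intestine, and of the 21 between colon and small intestine, 0 were called. No more than 0.00924% of all genes tested were called there in either direction.

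In CT26 against colon, 11 of 23 of these genes were called higher and 3 lower, with a median of 2.05. Over all genes tested, 21% were higher and 16.2% lower, with a median of 0.32. Loxl4 (7.58 ± 0.68, adjusted p = 8.55e-05), the proteinase enhancer Pcolce (5.72 ± 0.55), the collagen prolyl 3-hydroxylase Leprel2 (5.15 ± 0.67), the collagen chaperone Serpinh1 (4.28 ± 0.29) and Adamts14 (3.86 ± 0.47) were the 5 with the greatest rise. The N-proteinase Adamts2 (at least 31.2-fold) and Loxl1 (at least 16.2-fold) were lower and not detected on any CT26 array, and Loxl2 fell by 6.31 (SE 0.56). The difference between the differences was called for Adamts2 and Loxl2 (-8.41 ± 0.75) on the lower side and for Loxl4 (5.20 ± 0.87) and Serpinh1 (3.24 ± 0.50) on the higher side, with 5 lower and 8 higher of 25 in all. The shares over all genes tested were 15.3% lower and 15.5% higher. Without colon replicate 3 the counts were 11 higher and 4 lower between CT26 and colon, 1 higher and 3 lower between colon and small intestine, and 6 lower and 10 higher for the difference between the differences. In the same order, the shares over all genes tested were 20.1% and 19.4%, 3.34% and 3.9%, and 17.3% and 18.5%.

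Of 11 collagen receptors, 1 was called higher in adenomas than in small intestine (Gpr56, an adhesion receptor for type III collagen, 1.89 ± 0.17, adjusted p = 0.00028) and 0 lower. In CT26 against colon 6 of 11 were lower, led by the collagen-binding integrin chains Itga1 (-5.66 ± 0.60) and Itga2 (at least 17.4-fold), and 1 was higher, the discoidin receptor Ddr2 (4.29 ± 0.52, adjusted p = 0.000393). Its epithelial relative Ddr1 fell by 2.14 (SE 0.27, adjusted p = 0.000447). Over all genes tested, 11.3% were called higher and 11.1% lower in adenomas than in small intestine. In CT26 against colon these shares were 21% and 16.2%. Of 9 small proteoglycans that bind collagen fibers, 6 were tested in each of these comparisons. Ogn was lower in adenomas (-2.31 ± 0.48, adjusted p = 0.00691), and Lum (at least 73.8-fold), Dcn (-3.80) and Aspn (-3.11) were lower in CT26. Without colon replicate 3, 1 receptor was higher and 6 lower and 4 proteoglycans were lower in CT26. Then 20.1% of all genes tested were called higher and 19.4% lower.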

How the data were processed

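Cy3-labelled RNA of 14 samples in 5 groups was hybridised to one-color Agilent SurePrint G3 Mouse arrays. The authors deposited the output of the scanner software (Feature Extraction 10.7.3.1), in which the processed signal is a background-subtracted intensity without scaling across arrays. A table of normalized log2 values, also deposited, served as an alternative, and 28 further columns of that table were not used. Its fold changes and p-values of the authors' own comparisons were not used either.

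After removal of control and outlier spots, signals were expressed as log2 relative to the array's 75th percentile, and replicate spots were averaged per probe. Groups came from the labels. Pairs of groups were fitted with limma 3.58.1 in R 4.3.3 on their own arrays over all probes, with Benjamini-Hochberg adjustment over the probes tested, and the fit was tested on simulated data. Genes called, up to 10 per direction, and chains of the major tissue collagens were named. The collagen genes and the companion lists were chosen with earlier results of these data known. Fold bounds use, per array, the lowest signal among probes well above background. Alternatives were normexp background correction with an offset of 50, quantile normalization, the authors' table, other filters, slide and replicate blocks, 1 fit for all groups, the mean over probes, an adjusted p of 0.05 and leaving out each array. Replicate numbers were not taken to pair the samples. Signal over background takes the place of depth here, with 46.8% to 58.2% of probes well above background per array. The number of arrays limits the precision. Promoter sequences are from RefSeq (GRCm38.p6), which held all 41 symbols.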

Additional observations from a re-analysis of the deposited data

Results flagged for a closer look

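The difference between the change from colon to CT26 and the change from small intestine to adenomas passed the limma test for 11 collagen genes, all with a lower value in CT26. The log2 values of this difference were -6.59 for Col6a4, -6.33 for Col5a2, -6.19 for Col5a3, -6.00 for Col12a1, -5.92 for Col9a3, -5.70 for Col15a1, -5.46 for Col27a1, -5.08 for Col9a2, -4.56 for Col6a2, -4.48 for Col14a1 and -2.85 for Col13a1. Their adjusted p lay between 4.82e-06 for Col5a2 and 0.00136 for Col14a1 and Col13a1. In adenomas against small intestine Col12a1 (1.98), Col27a1 (2.46), Col6a2 (1.03), Col14a1 (2.22) and Col13a1 (0.81) were not called. The difference of Col9a3 lies on the adenoma side, as it was not well above background on any colon or CT26 array. All 11 were called in each fit that left out 1 array, and 3 of them (Col6a2, Col9a2 and Col14a1) had a signal well above background on all arrays of the 4 groups. The call of Col13a1 was lost with normexp background correction (-0.97, adjusted p = 0.064) and on the authors' table (-0.67, adjusted p = 0.0341). For Col14a1 the second probe gave -1.02 (adjusted p = 0.112).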

How the results depend on the processing

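No called collagen gene changed direction under any alternative run. Between adenomas and small intestine the count of 15 stayed between 11 and 20 under the other settings and between 10 and 18 when 1 array was left out, and between CT26 and colon the count of 13 stayed between 9 and 19 and between 9 and 17. The 0 called between adjacent tissue and small intestine was 0 in every fit. Between adenomas and adjacent tissue the count of 6 fell to 1 without a filter on dim probes, 1 with the slide as a block and 1 with all 5 groups in one fit, and ranged from 0 to 8 when 1 array was left out. Between colon and small intestine it was 1 (Col16a1) with all 5 groups in one fit and ranged from 0 to 2 when 1 array was left out. The difference between the differences gave 3 when probes had to be well above background on every array of each group, 19 at an adjusted p of 0.05, and 11 to 13 when 1 array was left out. The causes were not tested.

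Samples with the same replicate label had correlations of their deviations from the group means between -0.125 and 0.291, and these labels are not taken to pair the samples. The titles of the adjacent arrays carry other numbers than their replicate labels. Matching adenoma and adjacent arrays by title was not examined, so a pairing of these pieces cannot be judged here. With the replicate number as a block, adenomas gave 14 calls against small intestine and 1 against adjacent tissue, CT26 gave 13 against colon, the difference between the differences gave 12, and the comparisons of adjacent tissue and of colon with small intestine gave 0 each.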
